A study of Mus musculus with 30 samples.

Results

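The genes described here are the nuclear genes of respiratory complexes II to V, measured in mouse liver by RNA sequencing. They were chosen by symbol: the succinate dehydrogenase genes Sdha to Sdhd, Cyc1, and every protein-coding gene whose symbol starts with Uqcr, Atp5 or Cox followed by a digit from 4 to 8. A total of at least 300 counts over the 30 libraries was also asked for. Of 51826 gene identifiers, 48 matched on the symbol and 42 also reached the total: 4 genes of complex II, 9 of complex III, 12 of complex IV and 17 of complex V. All 42 passed the filter on low counts and were tested among 19685 genes.

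Left liver lobes came from male mice of a strain labelled C57BL16. One arm was exposed to 56Fe, a heavy ion found in cosmic rays, with a dose of 0.2 Gy and an energy of 600 MeV/n, and the other arm was not irradiated (control). Lobes were collected at months 1, 2, 4, 9 and 12, given in the design as days 30, 60, 120, 270 and 360 after irradiation. Each of the 10 groups held 3 biological replicates, so every comparison below is between 3 livers and 3 livers unless it pools months. No transgene or deletion is named in the labels, and the age of the animals is not given in them. Each library was made from tissue slices, so it holds the RNA of all liver cell types. In such bulk samples fewer cells of a type and less RNA per cell cannot be told apart.

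Complexes II to IV pass electrons along the inner mitochondrial membrane to oxygen, and complexes III and IV pump protons while they do so. Complex V, the ATP synthase, lets protons flow back through a rotating membrane ring and uses that flow to make ATP. Most subunits are encoded in the nucleus and imported, while a few core subunits of complexes III to V come from the mitochondrial genome. Hepatocytes, which make up most of the liver mass, are rich in mitochondria. Nuclear respiratory factor 1 (NRF1) and the ETS factor GABPA are textbook regulators of these genes.

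Promoter letters are shown first because most of these genes moved together across the libraries and because both factors have well-known motifs. RefSeq start sites on GRCm38.p6 were matched by symbol for 33 of the 42 genes, and each window ran from 250 bases upstream to 50 bases downstream of a start. Atp5c1, Atp5d and Atp5j had more than 1 start site, and the counts below are of genes. The full palindromic NRF1 consensus, spelled in the first capitals of Cox6a1 below, lay on either strand for 4 of the 33 genes (12.1%), namely Atp5g2, Atp5k, Cox6a1 and Uqcrc1, against 1.07% of 27025 genes. The ETS motif CCGGAAG lay in windows of 12 genes (36.4%) against 9.93% of genes. The ESRRA half-site AAGGTCA was found for 5 genes (15.2% against 5.38%) and the YY1 motif ATGGCGG for 2 (6.06% against 4.69%). The SP1 core GGGCGG was found for 12 genes (36.4% against 38.2%) and the TATA letters TATAAA for 1 gene, Atp5l (3.03% against 15.7%). A match describes the letters only. The 250 upstream bases of 4 genes follow, 5′ to 3′ on the strand of the gene. Cox6a1 (chr5:115348959-115349208, minus strand) holds both motifs, Uqcrh (chr4:116075071-116075320, minus strand) holds an ETS motif close to the start, Atp5c1 (chr2:10080511-10080760, minus strand) is the gene with the smallest p at month 1, and Atp5l (chr9:44920743-44920992, minus strand) moved against the other genes. Capitals mark NRF1 and ETS matches, and the window of Atp5c1 shown here has neither.
Cox6a1: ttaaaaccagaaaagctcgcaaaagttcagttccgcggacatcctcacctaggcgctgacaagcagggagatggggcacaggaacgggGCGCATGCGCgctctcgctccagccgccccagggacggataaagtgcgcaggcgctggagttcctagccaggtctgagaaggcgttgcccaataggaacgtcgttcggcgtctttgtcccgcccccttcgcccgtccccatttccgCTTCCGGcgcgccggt
Uqcrh: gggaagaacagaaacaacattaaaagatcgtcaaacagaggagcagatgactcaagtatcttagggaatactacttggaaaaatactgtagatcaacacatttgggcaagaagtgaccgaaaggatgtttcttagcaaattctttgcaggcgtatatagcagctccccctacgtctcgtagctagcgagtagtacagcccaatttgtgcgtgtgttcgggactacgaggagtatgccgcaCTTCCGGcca
Atp5c1: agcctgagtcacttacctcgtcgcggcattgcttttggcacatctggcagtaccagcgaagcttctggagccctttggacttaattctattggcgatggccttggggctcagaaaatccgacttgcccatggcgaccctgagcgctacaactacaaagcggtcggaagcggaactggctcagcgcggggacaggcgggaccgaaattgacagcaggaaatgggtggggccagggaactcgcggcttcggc
Atp5l: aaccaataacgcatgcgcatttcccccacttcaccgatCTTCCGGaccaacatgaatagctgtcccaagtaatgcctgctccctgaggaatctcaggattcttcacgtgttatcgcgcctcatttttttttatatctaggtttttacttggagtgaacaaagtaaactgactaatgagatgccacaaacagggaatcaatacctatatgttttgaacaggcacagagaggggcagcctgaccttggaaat

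Library totals ran from 7995248 to 20215995 counts. They lay at 7995248 to 14367259 in months 1 and 2 and at 13359559 to 20215995 in months 4, 9 and 12. The libraries of months 1 and 2 stood apart from those of months 4, 9 and 12. The noncoding RNA gene Gm26917 took 3.04% to 7.57% of all counts in the 12 early libraries and 0.452% to 2.04% in the 18 later ones. Protein genes of the mitochondrial genome took 2.17% to 5.90% early and 1.16% to 2.48% later. Summed CPM (counts scaled to normalised library size) of 6 hepatocyte markers, all detected and led by the albumin gene Alb, lay between 23932 and 69616 early and between 65091 and 93478 later. Markers of 10 cell types were examined. In the mean effect 2 of 4 erythroid and 1 of 5 stellate cell markers fell, and none of the other lists tested had a call. At month 1, 1 of 4 cholangiocyte markers was called higher, where 1.49% of all genes were. No other marker was called at a single month. Striated muscle markers summed to 0.451 to 3.11 CPM and testis germ cell markers to 0.0857 to 1.00 CPM, both near 0. In Gm26917 the third control library of month 1 lay apart from its group, at 6.09% of counts against 3.17% and 3.04%. In mitochondrial ribosomal RNA the second control library of that month lay apart, at 9.57% of counts against 0.578% and 2.31%. The first irradiated library of month 9 had the highest share of counts in the 42 genes, 0.891%.

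Within each complex the levels per transcript length covered a wide range. On the scale of mean CPM per kilobase of the principal transcript over 30 libraries, the catalytic beta subunit gene Atp5b was highest at 513, followed by Atp5a1, its alpha partner, at 384. In complex IV the level was highest for Cox4i1 (249), the common isoform of subunit 4, and lowest for Cox7a1 (2.47). Complex III ran from Uqcr11 (226) to Uqcrq (30.1), both small accessory subunits, and complex II from the flavoprotein gene Sdha (170) to the membrane anchor gene Sdhc (37.5). The lowest level in complex V was that of Atp5s (2.91), a coupling factor.

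The 42 genes together took 0.300% to 0.518% of counts in months 1 and 2 and 0.490% to 0.891% in months 4, 9 and 12. Month 1 had the lowest group mean for 40 genes in control livers and for 39 in irradiated livers. The control arm peaked at month 4 for 33 genes, while the irradiated arm peaked at month 9 for 37. The latter count rested on the first irradiated library of month 9, and without it 20 genes peaked there. The plot of all genes by library shows this common profile, with Atp5l running the other way.

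**Figure D1:**
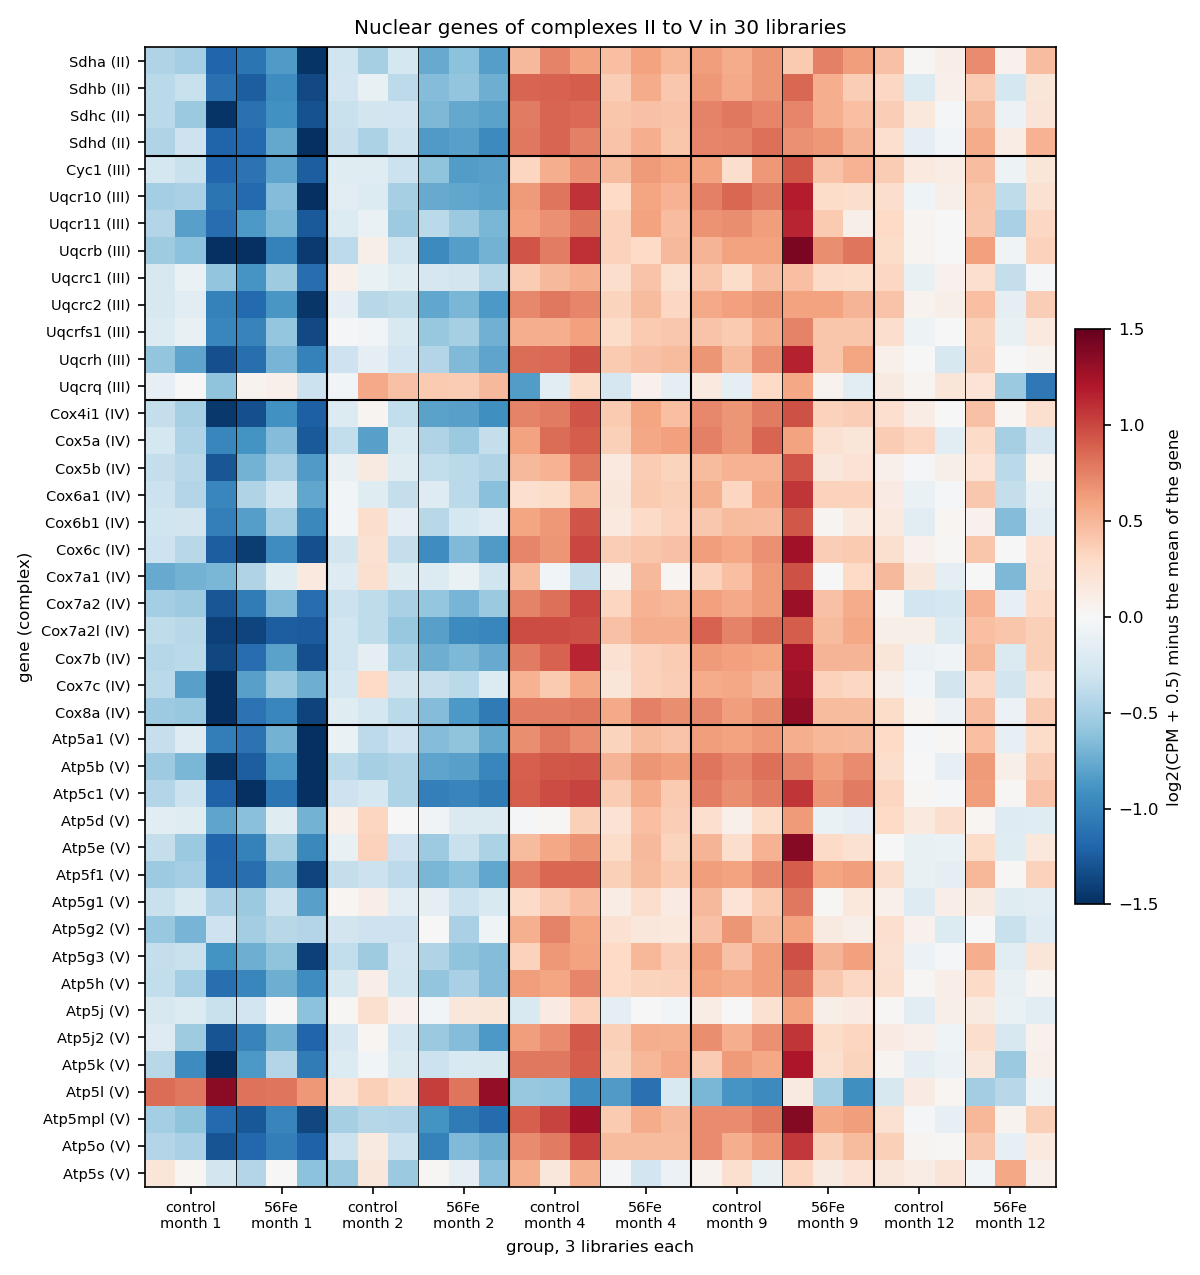
Each row is one of the 42 genes, grouped by complex, and each column one of 30 libraries, in order of month and arm. Colour gives log2(CPM + 0.5) minus the mean of the gene, so blue is below and red above its own mean. Months 1 and 2 are blue and months 4 and 9 red for most rows, whereas Atp5l is red early and Uqcrq shows no common direction.

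**Figure D2:**
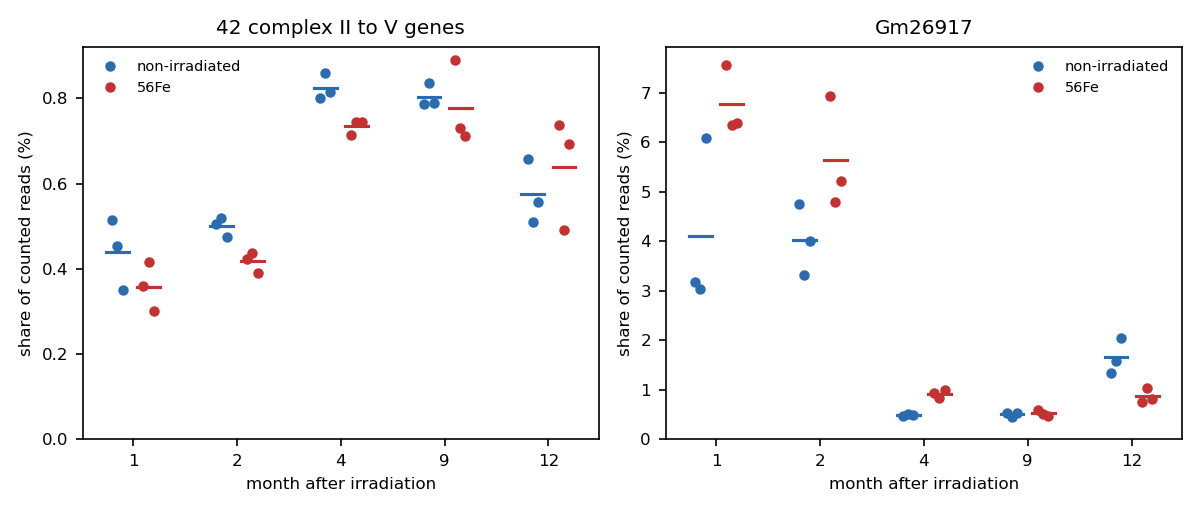
Left, share of counted reads (%) in the 42 genes by month. Right, share of Gm26917. Points are libraries and bars group means of 3. The 42 genes lie at 0.300% to 0.518% in months 1 and 2, where Gm26917 lies at 3.04% to 7.57%.

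Irradiated livers held lower levels of most of these genes than controls at months 1, 2 and 4, and levels near those of controls at months 9 and 12. The median log2 fold change of the 42 genes in the 5 months, in order, was -0.35, -0.39, -0.32, 0.01 and 0.05. The fold change was below 0 for 36, 37, 38, 21 and 14 of the 42 genes. Over all genes tested the same medians were -0.03, -0.02, 0.04, 0.00 and -0.02. At months 1, 2 and 4 the median of the 42 genes stayed below 0 under every scaling tried. It was weakest at -0.07, -0.26 and -0.03 when the level of Gm26917 entered the fit as a covariate.

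Few single genes passed the test (adjusted p under 0.05, edgeR's quasi-likelihood test adjusted over all genes). At month 1, 4 of the 42 fell (9.52%) and none rose, where 4.6% of all genes were called, 3.11% lower and 1.49% higher. At month 2, 3 fell and 1 rose, against 4.37% of all genes (1.8% lower, 2.57% higher). Months 4, 9 and 12 gave 0 calls among the 42, where 3.6% (1.77% lower, 1.82% higher), 1.66% (0.498% lower, 1.16% higher) and 0.0% of all genes were called. At an unadjusted p under 0.05 the counts were 15, 3 and 3. The other tools called 11 (limma voom) and 4 (DESeq2) at month 4, and 0 at months 9 and 12. The shares of all genes at that unadjusted p and in those tools are not given here. These counts are therefore not read against the background. In the mean effect over the 5 months 7 genes fell, 16.7% of the 42, against 5.26% of all genes (2.81% lower, 2.44% higher).

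Separation of the 3 irradiated from the 3 control livers was widespread at months 2 and 4. At month 2, 30 of the 42 genes (71.4%) had every irradiated liver below every control liver, against 18.6% of all genes. At month 4 the count was also 30 of 42, against 15.9% of all genes. At month 1 it was 0, against 9.92% of all genes. The third control liver of that month had the lowest share of counts in the 42 genes of its group, 0.349% against 0.514% and 0.454%. Months 9 and 12 had 3 genes (Atp5a1, Cox5a and Sdhd) and 1 gene (Atp5d), against 8.77% and 7.78%. Under other scalings the counts were 22 to 28 at month 2 and 23 to 32 at month 4. Other RNAs were separated at these months too. Malat1, a nuclear noncoding RNA, spanned 4533 to 5764 CPM in controls and 7943 to 9750 CPM in irradiated livers of month 2, and it was called higher there (0.75, adjusted p = 0.0245 by edgeR) and in the mean effect (0.36, adjusted p = 0.0120). Summed erythroid markers spanned 103 to 136 CPM in controls and 70.0 to 81.3 CPM in irradiated livers of month 2, and 317 to 432 and 202 to 259 CPM at month 4, with none of the 4 called at a single month. Summed stellate cell markers were also lower without overlap, at 258 to 300 and 234 to 254 CPM at month 2. At month 4 they spanned 436 to 487 and 374 to 428 CPM. Kupffer cell and cholangiocyte markers were lower without overlap at month 2, while sinusoidal endothelium and lymphocyte markers were higher. Hepatocyte markers overlapped at both months. The part of these RNAs in the separation of the 42 genes was not tested.

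**Figure D3:**
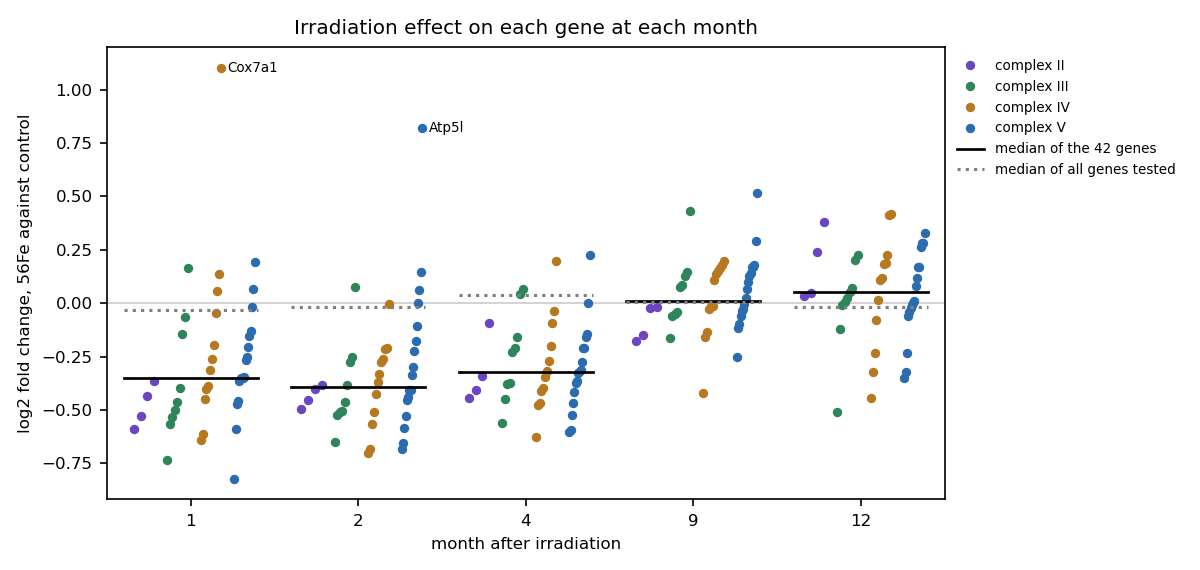
Log2 fold change of irradiated against control livers for each of the 42 genes at each month, coloured by complex. Black bars are medians of the 42 genes and dotted bars medians of all genes tested. The black bar lies at -0.35, -0.39 and -0.32 at months 1, 2 and 4 and near 0 after that. Cox7a1 at month 1 and Atp5l at month 2 stand above the rest.

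In complex II, which links the citric acid cycle to the electron chain, all 4 genes were below 0 at months 1, 2 and 4. Their median was -0.48, -0.43 and -0.37 on the log2 scale. Sdhb encodes the iron-sulphur subunit. It read 111, 117 and 67.4 CPM in control livers and 62.2, 76.5 and 56.9 CPM in irradiated livers of month 1. At month 2 control livers had 120.1, 136 and 112 CPM and irradiated livers 93.5, 97.3 and 88.1 CPM. The irradiated livers were all below the controls at month 2, whereas at month 1 the third control lay among them. Sdhb passed over the 5 months, with a mean log2 fold change of -0.28 (SE 0.08) and an adjusted p of 0.0357. Sdhc, a membrane anchor with part of the haem site, did so as well at -0.27 (SE 0.08), adjusted p = 0.0388. Sdhd, the other anchor, was -0.23 (SE 0.08) with an adjusted p of 0.0827, and Sdha was -0.14 (SE 0.08) with 0.329, so neither passed.

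In complex III, which oxidises ubiquinol and reduces cytochrome c, both core protein genes fell at month 1. For Uqcrc2 (chromosome 7, 120635176 to 120659524) the control livers read 119.6, 127 and 69.7 CPM and the irradiated ones 62.3, 76.7 and 50.8 CPM. Control replicates 1 and 2 were above all irradiated livers, and control replicate 3 was within their range. The log2 fold change was -0.73 (SE 0.17), adjusted p = 0.0132, and over the 5 months -0.31 (SE 0.08), adjusted p = 0.0190. Uqcrc1 read 171, 187 and 133 against 109, 139 and 91.0 CPM at month 1, with the third control again overlapping (-0.53, SE 0.16, adjusted p = 0.0480). Uqcrfs1, the Rieske iron-sulphur protein, had a log2 fold change of -0.57 at month 1 and -0.51 at month 2, and Cyc1, cytochrome c1, had -0.50 and -0.52. Their adjusted p values lay at 0.0679, 0.0928, 0.134 and 0.0940, so none passed.

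Uqcrb, a small subunit near the ubiquinone site, differed between the arms in a way that varied with the month. At month 4 it stood at 111, 98.1 and 123 CPM in controls and 73.1, 71.1 and 81.1 CPM in irradiated livers. At month 9 it stood at 82.3, 88.0 and 87.5 CPM and 154, 93.5 and 100.4 CPM. The arms did not overlap at either month, with irradiated livers lower at month 4 and higher at month 9. The effect differed between the 5 months with an adjusted p of 0.0323, while at single months it reached -0.56 (SE 0.21), adjusted p = 0.138, and 0.43 (SE 0.21), adjusted p = 0.308. It was also the only one of the 42 with irradiated livers all above controls at month 9, against 9.4% of all genes.

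In complex IV, cytochrome c oxidase, Cox7a2l and Cox4i1 were called. Cox7a2l encodes a protein that takes part in joining complexes III and IV into supercomplexes. At month 1 it read 33.2, 32.3 and 16.2 CPM in controls and 16.4, 18.2 and 17.9 CPM after irradiation. At month 4 the values were 85.7, 85.9 and 85.2 CPM and 58.8, 63.6 and 63.3 CPM, and at month 12 they were 46.2, 46.2 and 37.5 CPM and 59.4, 58.0 and 55.6 CPM. The third control was below all irradiated livers at month 1, while without overlap the irradiated livers were lower at month 4 and higher at month 12. The gene fell at month 1 by edgeR (-0.64, SE 0.17, adjusted p = 0.0233) and in the mean of the months (-0.27, adjusted p = 0.0274). At month 4 it was -0.47 (SE 0.16), adjusted p = 0.0948, and at month 12 0.41 (SE 0.16), adjusted p = 0.266. It was the only one of the 42 genes with irradiated livers all above controls at month 12, against 7.74% of all genes.

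Cox4i1 fell at month 2. Its control livers read 149, 176 and 133 CPM and its irradiated livers 98.4, 97.0 and 90.6 CPM, with no overlap (-0.68, SE 0.19, adjusted p = 0.0426). Cox7b, a small subunit, came closest to a call in complex IV at month 4, at 189, 203 and 244 against 129, 141 and 143 CPM. All 3 irradiated livers were below all 3 controls, with -0.63 (SE 0.21) and an adjusted p of 0.0871. Cox6c, another small subunit, was -0.70 (SE 0.21) at month 2, adjusted p = 0.0561. Cox5a, a matrix-side subunit, was -0.42 (SE 0.20) at month 9, adjusted p = 0.277. Cox7a2 and the complex II gene Sdhd, with Cox7a2l, had the smallest p values of month 12, at 0.42 (SE 0.19) and 0.38 (SE 0.17), both with an adjusted p of 0.340.

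Complex V held the gene with the smallest p among the 42, Atp5c1 (ENSMUSG00000025781, chromosome 2, 10056016 to 10080510, minus strand of GRCm38), which encodes the gamma subunit of the rotating central stalk. At month 1 control livers had 119, 129 and 69.3 CPM and irradiated livers 51.4, 75.2 and 52.5 CPM. At month 2 they had 129, 134 and 116 and 78.8, 80.7 and 76.8 CPM, and at month 4 303, 316 and 326 and 209.9, 237 and 211 CPM. Controls and irradiated livers overlapped at month 1 through the third control and were apart at months 2 and 4. Atp5c1 fell at month 1 by 0.82 on the log2 scale (SE 0.18, adjusted p = 0.00742) and at month 2 by 0.68 (SE 0.18, adjusted p = 0.0317). The value of month 4, -0.52 (SE 0.18), had an adjusted p of 0.0948. By month 12 control livers read 200.4, 163 and 159 CPM and irradiated livers 248, 163 and 216 CPM, and the arms overlapped.

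Atp5o encodes the subunit that ties the outer stalk to the catalytic head. It fell at month 2, from 55.4, 75.7 and 55.3 CPM in controls to 33.9, 43.4 and 41.3 CPM in irradiated livers, without overlap (-0.65, SE 0.19, adjusted p = 0.0458). In the mean effect its adjusted p was 0.0414, that of Cox4i1 0.0406 and that of Atp5c1 0.0159. Atp5mpl, a small proteolipid of the membrane part, had the smallest p of the 42 genes at month 4. Its values were 87.1, 94.9 and 113 CPM in controls and 61.2, 68.7 and 65.6 CPM in irradiated livers, without overlap. The log2 fold change of -0.59 (SE 0.17) gave an adjusted p of 0.0509, just above the threshold. Atp5b and Atp5a1, which form the catalytic head, were at -0.41 and -0.41 at month 2, and neither passed at any month.

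Atp5l, which encodes subunit g of the membrane part, was the one gene that rose. At month 2 the irradiated livers had 17.3, 14.6 and 21.1 CPM and the controls 9.42, 10.6 and 9.89 CPM, with all irradiated livers higher (0.82, SE 0.23, adjusted p = 0.0389). Of all genes, 15.6% had irradiated livers all above controls at that month. How far its counts reflect its level is uncertain. Of the 50-base windows of its principal transcript, 84.8% occurred in other genes, 14 in number, and 12 of these were pseudogenes in the table. All 260 windows of its coding sequence did. One stretch, coding bases 215 to 264 of 309, was identical in 9 other genes, 8 of them pseudogenes, and is shown because a read that matches only there fits all of them. The 12 pseudogenes had 12 to 232 counts each over the 30 libraries, and Atp5l had 3718.
Atp5l coding stretch: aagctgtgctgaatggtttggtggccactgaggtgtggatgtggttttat
The sources used here name STAR's GeneCounts option and do not say how reads with several matches were treated. Another 8 of the 42 genes shared more than 25% of their windows with other genes, namely Atp5g2 (87.4%), Cox7c (53.0%), Atp5o (50.3%), Atp5h (47.9%), Uqcrb (43.4%), Atp5f1 (38.7%), Cox5a (32.0%) and Cox5b (25.9%).

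**Figure D4:**
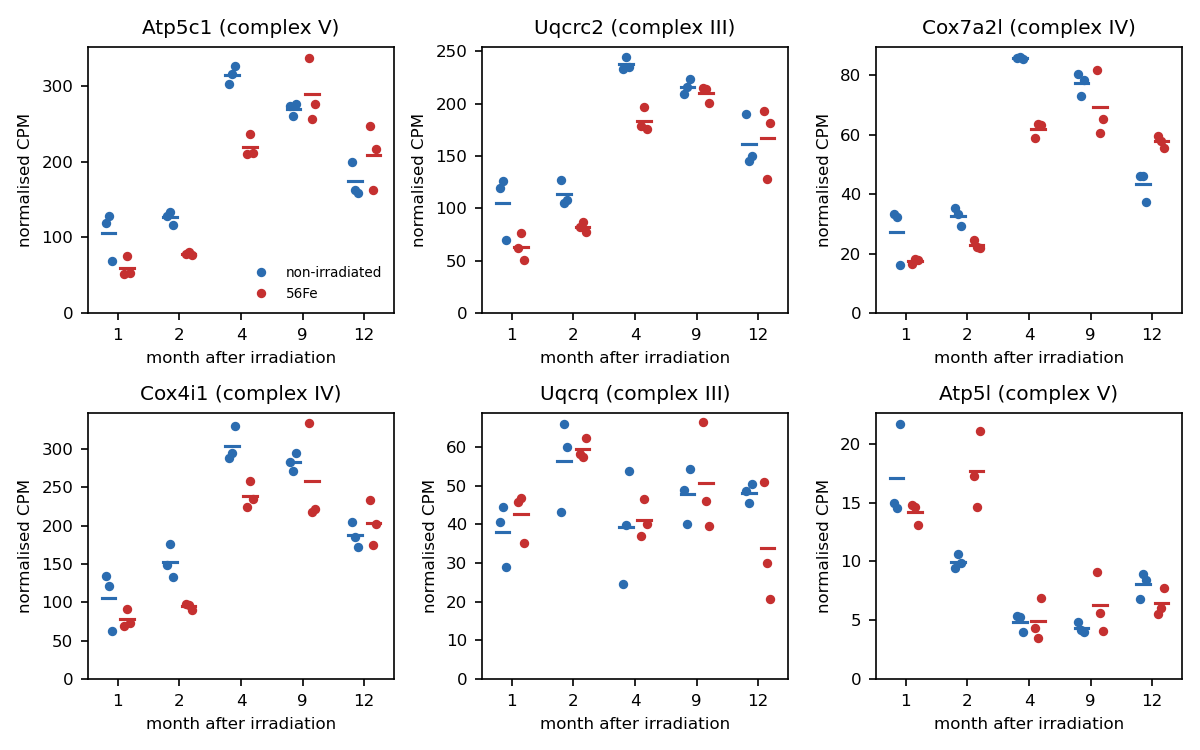
Normalised CPM by month for 6 genes, with control livers in blue, irradiated livers in red, points for libraries and bars for group means of 3. Atp5c1, Uqcrc2, Cox7a2l and Cox4i1 are lower in irradiated livers at months 2 and 4 without overlap, Uqcrq overlaps at every month, and Atp5l is high in months 1 and 2.

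The month 1 calls turned on single libraries. Without the third control of month 1, 22 of the 42 genes passed at month 1, where 9.15% of all genes in that fit were called, and 22 in the mean effect, against 11.5%. Without control replicate 1 or 2, or irradiated replicate 1 or 3, none passed at month 1. The groups also differed in other measures at these months. Gm26917 took 3.17, 3.04 and 6.09% of counts in controls and 7.57, 6.36 and 6.39% in irradiated livers of month 1. For month 4 the shares were 0.469, 0.507 and 0.493% and 0.935, 0.827 and 0.985%. By edgeR it was called higher at month 4 (0.77, adjusted p = 0.0459) but not at month 1 (0.67, adjusted p = 0.0736). At month 12 the direction was reversed, at 1.33, 1.58 and 2.04% in controls and 0.759, 1.04 and 0.810% in irradiated livers. That difference was not called (-0.93, adjusted p = 0.0985). Summed hepatocyte markers spanned 44052 to 58510.1 CPM in controls and 23932 to 48233 CPM in irradiated livers of month 1. None of the 6 passed the test at any month. Summed cholangiocyte markers spanned 3.10 to 5.63 CPM in controls and 8.89 to 11.7 CPM in irradiated livers of month 1. Lymphocyte markers spanned 4.67 to 5.45 and 2.99 to 3.91 CPM. Neither of these low lists overlapped between the arms at that month, while the other lists did. With the level of Gm26917 as a covariate, 0 of the 42 genes passed at month 1, at month 2 or in the mean effect. Gm26917 itself varied with arm and month, so its part in these calls cannot be told apart from theirs. The share of all genes called with this covariate is not given here. The counts of 0 are therefore not read as a result about the 42 genes alone. At month 2, leaving out any 1 of the 6 livers left 0 or 1 of the 42 genes called. The 7 calls of the mean effect became 14 without the first irradiated liver of month 9 (4.62% of all genes) and 16 without the first irradiated liver of month 12 (6.67%), and 1 to 10 without any other single library.

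The effect of irradiation differed between months for 5 of the 42 genes (11.9%), close to the 11% of all genes. These were Atp5c1 (adjusted p = 0.0120), Cox7a2l (0.0151), Atp5mpl (0.0224), Uqcrb (0.0323) and Atp5l (0.0466), by edgeR's F-test of the monthly effects. The first 4 were below 0 at months 1, 2 and 4. Without the third control of month 1 the count was 18, against 14.7% of all genes. It was 9 without the second irradiated liver of month 9 (15.5% of all genes) or of month 12 (11.1%), and 1 without the first irradiated liver of month 12 (5.77%). Leaving out any other single library took it to 2 to 6. Contrasts of subsets of months were taken from the fit of all 30 libraries. Over months 1 and 2 alone, the mean effect was called for 17 of the 42 genes, all lower, against 10.4% of all genes. Over months 4, 9 and 12 alone it was called for 0, against 0.0203% of all genes, with 3 at an unadjusted p under 0.05. The difference between the effects of months 1 and 2 was called for 0 of the 42 (2 at an unadjusted p under 0.05), against 0.991% of all genes.

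Most of the 42 genes rose from month 1 to month 12, and in control livers most were lower again at month 12 than at month 4. The F-test over the 5 months called 39 of the 42 in control livers, against 58.3% of all genes, and 39 in irradiated livers, against 59.0%. From month 1 to month 12, 37 rose and 1 fell in control livers, where 23.1% of all genes rose and 14.1% fell. In irradiated livers 36 rose and 1 fell, against 26.1% and 20.1%. The median log2 change was 0.69 in controls and 1.09 in irradiated livers, and these 2 medians were not compared by a test. For example, Atp5b went from 481 ± 147 CPM (mean ± SD, n = 3) in month 1 controls to 1638 ± 31.6 in those of month 4 and 897 ± 128 in those of month 12. In irradiated livers it went from 378 ± 90.9 to 1310.3 ± 70.0 and 1126 ± 213 CPM.

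The early and later libraries differed in depth, Gm26917 and hepatocyte markers as given above, and month, depth and composition cannot be told apart. From month 1 to month 12 all 4 erythroid markers rose in both arms (median log2 change 1.68 in controls and 1.63 in irradiated livers), as did 4 of 5 stellate cell markers (0.98 and 1.20). Of 6 hepatocyte markers 3 rose in controls and 5 in irradiated livers. Malat1 fell by 0.60 in controls (adjusted p = 0.0132) and by 1.38 in irradiated livers (adjusted p = 8.85e-07) on the log2 scale. For 13 of the 42 genes all 18 later libraries lay above all 12 early ones, against 7.21% of all genes, with 3 of the 4 complex II genes among them (Sdha, Sdhc and Sdhd). With the level of Gm26917 as a covariate the month 12 against month 1 counts were 0 in both arms. In controls the count was 18 without the third control of month 1 and 19 with upper quartile scaling. For these fits too the shares of all genes called are not given here. Between months 1 and 2 alone, 5 of the 42 genes changed in control livers, against 9.8% of all genes, and 0 in irradiated livers, against 0.00508%. Within months 4, 9 and 12 alone, 26 of the 42 genes changed in control livers, against 20.2% of all genes, and 0 in irradiated livers, against 2.93%. The difference between the arms over those months was called for 2 of the 42, against 7.98%. In 35 genes every month 12 control lay below every month 4 control, against 16.7% of all genes, and in irradiated livers this held for 12 genes, against 8.97%.

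Most of the genes shared one profile. Over the 30 libraries the log2 level of 35 of the 42 genes had a Pearson r above 0.9 with the median of the other members, and the median r was 0.97. The libraries share depth and composition, so this is a description. Those least like the rest were Atp5l (r = -0.86), Uqcrq (0.03), Atp5j (0.59), Atp5s (0.60) and Cox7a1 (0.62). Atp5l read 15, 14.5 and 21.7 CPM in month 1 controls and 5.35, 5.31 and 4.03 CPM in month 4 controls, and all 18 later libraries were below all 12 early ones, as for 1.29% of all genes. It fell from month 1 to month 12 by 1.08 in controls and 1.14 in irradiated livers on the log2 scale. Uqcrq, a complex III subunit, read 24.6, 39.7 and 53.8 CPM in month 4 controls and 50.9, 29.9 and 20.7 CPM in month 12 irradiated livers, a wide spread among livers of a group. It passed in none of the comparisons over all 5 months, at single months or from month 1 to month 12.

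Isoforms of other tissues were close to 0. Cox4i2, Cox6a2, Cox6b2, Cox7b2, Cox8b and Cox8c, forms known from lung, muscle, heart or testis, had totals of 44, 16, 46, 18, 45 and 11 counts over the 30 libraries and were left out by the rule. None had more than 5 counts in a library. Cox7a1, the heart and muscle form, was just inside the rule with 408 counts. Cox7a2, the form used in liver, was 34.8 to 274 times as high in CPM, with a median ratio of 88.7. At month 1 Cox7a1 read 0.333, 0.363 and 0.376 CPM in controls and 0.533, 0.747 and 1.06 CPM in irradiated livers. The irradiated livers were all higher, as in 8.71% of all genes, and the difference did not pass (1.10, SE 0.50, adjusted p = 0.243). Subunit c, the rotating ring, is encoded by 3 genes for one mature protein. By group Atp5g3 gave 55.7% to 67.8% of their summed CPM, Atp5g1 29.7% to 41.5% and Atp5g2 2.47% to 3.68%. These shares are not scaled by the length of the principal transcript, which is 723, 4715 and 731 bases. Mean CPM per kilobase was 227 for Atp5g3, 18.8 for Atp5g1 and 10.5 for Atp5g2. The level of Atp5g2 is uncertain, as 87.4% of its windows were shared with other genes.

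Genes around the complexes were examined by lists. Nuclear complex I genes (38 tested) had 4 lower calls at month 1 and 3 at month 2, where 3.11% and 1.8% of all genes were called lower, with medians of -0.16 and -0.33. The largest of these was Ndufb4 at -1.14 and -1.01. Assembly factors of complexes II to V (38 tested of 41) had 5 lower calls at month 1, against the same 3.11% of all genes, among them Lrpprc (-0.56), which stabilises mitochondrial messages, and Uqcc1 (-0.48) and Ttc19 (-0.43), which act on complex III. At month 2 the assembly factor gene Coa5 alone fell (-0.57). Of 10 matrix and outer membrane genes 6 fell at month 1, also against 3.11%, including the pore genes Vdac2 (-0.64) and Vdac1 (-0.72) and the citric acid cycle gene Idh3a (-0.62). The 4 genes for cytochrome c and the adenine nucleotide and phosphate carriers had medians of -0.22, -0.23 and -0.34 in months 1, 2 and 4.

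Of 6 mitochondrially encoded subunits of complexes III to V, mt-Cytb and mt-Co1 were tested, with the other 4 at totals of 2 to 37 counts over the 30 libraries. As the treatment of reads with several matches is not given in the sources used here, those totals are not read as levels of the 4 genes. Cytochrome b of complex III, mt-Cytb, had 1684 ± 809 CPM (mean ± SD, n = 3) in controls and 3957 ± 1171 in irradiated livers at month 1. It rose there (1.23, adjusted p = 0.0134) and in the mean effect (0.78, adjusted p = 0.00133), where Uqcrc2 of the same complex fell. The core subunit gene of complex IV, mt-Co1, passed in neither, at 0.23 (adjusted p = 0.721) and 0.20 (adjusted p = 0.263). Among 10 regulators of mitochondrial biogenesis, Gabpa fell at month 1 (-0.55, adjusted p = 0.00719) and Esrra, an orphan nuclear receptor, at month 9 (-0.79, adjusted p = 0.0117). At month 9 Esrra had 31.5 ± 1.83 CPM in controls and 18.3 ± 3.48 CPM in irradiated livers, a month at which 0 of the 42 genes were called.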

How the data were processed

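The values are read counts per gene that the authors deposited as whole numbers, without normalization. Per the labels' protocols, ribosomal RNA was removed, paired 50-base reads were aligned to GRCm38 with STAR 2.5.3a, and its GeneCounts option was used with Gencode M14. How strand was set is not given in the sources used here. For the 11 members with exons that overlap a gene on the other strand, how the shared bases were counted is therefore not known. The largest shares of exon bases were those of Atp5o (35.6%), Uqcrc2 (19.7%), Cox5a (12.8%), Atp5j (12.7%, with Gabpa) and Cox4i1 (9.94%). The others, at 2.06% to 8.21%, were Atp5a1, Atp5d, Atp5f1, Atp5l, Cox6c and Uqcrb. Symbols, biotypes and transcripts came from Gencode M21, which held 51633 of the 51826 identifiers. Groups came from the treatment, time and replicate labels.

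Counts were fitted with edgeR 4.0.16 (R 4.3.3): TMM factors, filterByExpr (minimum count 10, minimum total 15), 1 coefficient for each of 10 groups over all 30 libraries, robust quasi-likelihood tests and Benjamini-Hochberg adjustment over 19685 genes. CPM values use TMM library sizes, and SE is the fold change divided by the square root of F. The fit was tested on simulated data with known changes. Members called at an adjusted p under 0.05 were named, up to 8 by p, or else the 3 with the smallest p, and values per library were given for the leading members of each complex. From other lists up to 4 called genes were named. The counts of groups without overlap, Malat1 and Uqcrq were added after the values were seen. The members and lists were chosen with earlier results of these data known. Labels call the replicates biological. Over all months the same replicate numbers showed no common pairing of the samples (r from -0.38 to 0.35 over 15 pairs, 6 above 0.1). At month 4 all 3 controls correlated best with the irradiated sample of their own number. A pairing at single months was not tested further. No 2 replicates agreed within counting noise. Alternatives were other scalings and filters, a Gm26917 covariate, limma 3.58.1 voom, DESeq2 1.42.0 and replicate number as a block. Others were a fit of just the 6 libraries compared, contrasts of subsets of months in the main fit, and leaving out each replicate.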

Additional observations from a re-analysis of the deposited data

Results flagged for a closer look

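For 5 of the 42 genes the irradiation effect differed between the 5 months by a test of the difference itself (edgeR's quasi-likelihood F-test, adjusted over all genes). Atp5c1 had the smallest adjusted p, 0.01195, with log2 fold changes of -0.82, -0.68 and -0.52 at months 1, 2 and 4 and 0.10 and 0.26 at months 9 and 12. Cox7a2l followed with 0.01512 and moved from -0.64 at month 1 to 0.41 at month 12. Atp5mpl had 0.02242, with -0.59 at month 4 and 0.28 at month 12. Uqcrb had 0.03234, with -0.65 at month 2 and 0.43 at month 9. Atp5l had 0.04665, with 0.82 at month 2 and -0.32 at month 12. Among all genes 11% were called in this test, so 5 of 42 is close to the background.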

How the results depend on the processing

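Counts below are of the 42 genes called, against 4 at month 1, 4 at month 2, 0 at month 4, 7 in the mean effect, 5 for a difference between months, 39 for time in each arm, and 38 (controls) and 37 (irradiated) for month 12 against month 1. With the level of Gm26917 as a covariate the counts were 0 at months 1 and 2, 0 in the mean effect, 0 for the difference between months, 3 and 0 for time in control and irradiated livers, and 0 for month 12 against month 1 in both arms. Limma voom gave 18, 23 and 11 at months 1, 2 and 4, 24 in the mean effect and 12 for the difference between months. DESeq2 gave 7 at month 1, 4 at month 4 and 12 in the mean effect. The 6 compared libraries alone gave 0, 25 and 18 at months 1, 2 and 4 and 12 for month 12 against month 1 in controls. Upper quartile scaling gave 1 at month 4, 4 in the mean effect and 19 for month 12 against month 1 in controls. RLE factors, no filter and a filter at 1 CPM in 3 libraries each gave 1 at month 4. Protein-coding nuclear genes alone gave 2 at month 2 and 3 in the mean effect. In contrasts of months 1 and 2 in the main fit the mean effect had 17, the difference between months 0, and time 5 and 0. In contrasts of months 4, 9 and 12 in the main fit the mean effect had 0, the difference between months 2, and time in irradiated livers 0. Months 9 and 12 had 0 calls under every setting that was run. Shares of all genes called are not given beside the counts of this section. These counts are therefore not read as results about the 42 genes alone. The cause of the differences between settings was not tested.

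Leaving out 1 replicate gave 0 to 22 at month 1, 0 to 1 at month 2 and 0 to 0 at months 4, 9 and 12. The ranges were 1 to 22 in the mean effect, 1 to 18 for the difference between months, 38 to 40 for time in each arm, and 18 to 37 and 31 to 36 for month 12 against month 1 in control and irradiated livers. With the replicate number as a block the counts were 9, 15 and 5 at months 1, 2 and 4, 18 in the mean effect and 15 for the difference between months. The numbers do not pair the samples by design, and 7 of 15 checks had a sample correlate best with its own number. Among the genes chosen by the naming rule no called direction was reversed in these settings. With the Gm26917 covariate Sdhd at month 12, which was not called, went from 0.38 to -0.0049. The median of the 42 genes, near 0 at months 9 and 12, also changed sign there: it ran from -0.16 to 0.14 at month 9 and from -0.23 to 0.24 at month 12 over these settings. In checks added after the data were seen, leaving out 1 library gave 20 to 38 genes with their highest mean at month 9 in irradiated livers and 28 to 36 at month 4 in controls, and 35 to 40 (controls) and 37 to 39 (irradiated) with their lowest at month 1. The monthly tests are limited by 3 livers a group, with 7995248 to 20215995 counts a library, and Cox7a1 and Atp5s were low throughout.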
